A study of Rattus norvegicus with 13 samples.

Results

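The comparison described here asks whether a difference in DNA methylation between the sperm of DDT-lineage and control-lineage rats was still seen in the embryos that such sperm sired. It is a difference of differences: DDT minus control in morulae, minus DDT minus control in sperm, and it is called the interaction below. The members are all stretches of chromosomes 1 to 20 that were counted in both tissues, chosen by position and not by any measured value. They comprise 2618741 windows of 1 kb, of 2782040 windows in all, which were also summed into 261882 bins of 10 kb. An interaction above 0 means that the DDT lineage stood higher against control in morulae than it did in sperm, and an interaction below 0 means the reverse.

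All animals were outbred Hsd:Sprague Dawley rats. Pregnant F0 females were injected intraperitoneally every day from embryonic day 8 to day 14, with the insecticide DDT for one lineage and with the solvent DMSO for the control lineage, and no later generation was dosed. The sperm was F3 sperm from the cauda epididymis of rats kept to an age of 1 year. The morulae were pools of embryos made by injecting a single sperm head into a mature egg (intracytoplasmic sperm injection, ICSI) and by culture to the morula stage, a compact ball of cells before implantation. The 4 groups were control sperm (n = 3), DDT sperm (n = 4), control morulae (n = 3) and DDT morulae (n = 3). The eggs came from superovulated females of the same stock for which the labels give no exposure lineage, so only the paternal genome of a morula is labelled as lineage material. The labels do not say that replicates came from separate animals or from separate embryo pools, so the p-values measure the spread between these libraries, which may be technical.

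The assay, MeDIP-seq, uses an antibody against 5-methylcytosine to pull methylated DNA fragments out of sheared genomic DNA before they are sequenced. The reads of a stretch depend on how methylated it is and on how many CpG sites it has to methylate. The same stretch is therefore compared between libraries of a tissue. Counts are taken as a share of each library, so a like level in sperm and morulae need not mean like methylation. In mammals the sperm genome is heavily methylated at most CpG sites. After fertilisation the paternal genome loses much of this mark, in part actively through oxidation by the TET3 enzyme and in part by dilution as the cells divide, and the level is lowest shortly before implantation. Imprinted regions and some repeats are known to escape this loss, which is the reason for asking whether a difference that an ancestor's exposure left in sperm could pass through it.

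Total counts ranged from 30386626 to 193750804 per library. Mitochondrial DNA took 0.0302% to 0.0608% of the counts in the 6 morula libraries and 0.000905% to 0.00453% in the 7 sperm libraries, and the tissues did not overlap in this check of the labels. Control sperm replicate 3 and DDT sperm replicate 4 were the shallowest libraries and stood apart from the other sperm libraries. Over 10 kb bins their log2 counts correlated at 0.958 with each other and at 0.813 to 0.878 with the other 5 sperm libraries, which correlated among themselves at 0.947 to 0.983. The main tests are therefore given with all 13 libraries and with the 11 that remain without this pair. Runs, intervals, scores, signal classes and counts per chromosome use bins or fits without the pair only. The left-out pair serves as a single difference of its own that has no replicates. Depth moved with lineage as well. Autosomal counts were 46829383 to 63190997 in control morulae against 36119537 to 39139779 in DDT morulae, and 140442488 and 188374435 in control sperm replicates 1 and 2 against 101613727 to 124287442 in DDT sperm replicates 1 to 3. The part of depth in the results was not tested.

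With all 13 libraries no 10 kb bin passed the test for an interaction. In edgeR's quasi-likelihood test, with Benjamini-Hochberg adjusted p under 0.05 as the threshold, 0 of 259331 bins passed (0%), while 8597 had an unadjusted p under 0.05. DESeq2 also called 0. DDT against control in sperm alone, with 7 libraries, gave 0 of 259294 bins (0%) with 10795 at an unadjusted p under 0.05, where DESeq2 called 103 bins, 90 of them higher and 13 lower in DDT sperm. In morulae alone 0 of 259325 bins passed (0%), with 11616 at an unadjusted p under 0.05 and 0 by DESeq2. Leaving out control sperm replicate 3 alone gave 9 interaction bins, 8 above and 1 below 0, and 6 sperm bins.

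In 9 of the 10 leading bins by interaction p over all 13 libraries the sperm groups did not overlap, and on chromosome 5 they did. The bins were chosen on this contrast, in which 0% of all bins passed, so nothing is read from that count. The bin on chromosome 19 at 27120001-27130000 had 0.56, 0.76 and 0.58 CPM (counts per 1000000 autosomal counts of the library) in control sperm and 1.55, 1.81, 2.37 and 1.63 CPM in DDT sperm. Its morulae had 1.52, 1.65 and 2.09 CPM in the control lineage and 1.94, 1.69 and 1.77 CPM in the DDT lineage. The sperm groups did not overlap, and the DDT morulae lay inside the range of the control morulae. The interaction was −1.46 ± 0.278 (SE) on the log2 scale with an unadjusted p of 6.85e-05, and edgeR's adjusted p was 1.00.

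The bin on chromosome 12 at 17180001-17190000 had the same form. Control sperm held 1.53, 1.5 and 1.81 CPM, and DDT sperm held 3.25, 2.79, 3.42 and 2.74 CPM. The control morulae held 4.15, 3.38 and 4.36 CPM and the DDT morulae 4.04, 3.17 and 4.01 CPM, so the sperm libraries were separated by lineage and the embryo libraries were mixed. On chromosome 20 at 5760001-5770000 control sperm had 3.56 to 3.96 CPM and DDT sperm 4.84 to 7.54 CPM, while control morulae had 5.23 to 5.68 CPM and DDT morulae 4.78 to 5.26 CPM. Bins at chromosome 14, 113290001-113300000, and chromosome 12, 8920001-8930000, were the other 2 of the 5 leading bins below 0, with interactions of −1.15 and −0.92.

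The 5 leading bins above 0 had differences of opposite sign in sperm and morulae, which choosing them on the interaction favours, and the morula groups overlapped in 2 of them, on chromosomes 2 and 15. On chromosome 18 at 84730001-84740000 sperm had 2.02, 1.77 and 1.88 CPM in the control lineage and 1.26, 1.12, 1.26 and 1.20 CPM in the DDT lineage. The same bin had 2.22, 2.71 and 2.78 CPM in control morulae and 3.46, 3.12 and 3.10 CPM in DDT morulae. DDT libraries were thus the lower ones in sperm and the higher ones in morulae, with no overlap in either tissue, and the interaction was 0.98 ± 0.196 (SE). On chromosome 5 at 45360001-45370000 the morulae had 2.07 to 2.23 CPM in the control lineage and 3.07 to 3.35 CPM in the DDT lineage, against 2.08 to 3.71 CPM in control and 1.65 to 2.28 CPM in DDT sperm. The remaining leading bins, on chromosome 6 at 67520001-67530000, chromosome 2 at 246200001-246210000 and chromosome 15 at 49520001-49530000, had interactions of 1.12, 1.12 and 1.85. None of these 10 bins passed the test with 13 libraries, and all 10 values remained on that side under each alternative tried.

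Without the left-out pair 3544 of 259370 bins passed the interaction test (1.37%), 1583 above and 1961 below 0. Scaling by library size in place of TMM gave 4198, 1269 above and 2929 below. DESeq2 called 2259. In sperm alone without the pair, 47739 of 259355 bins passed (18.4%), 25391 higher and 22348 lower in DDT sperm, and DESeq2 called 26684. The counts depended on single libraries. The interaction count fell to 195 without control sperm replicate 2, and the sperm count to 12031. Without DDT morula replicate 1 the interaction count was 6250. It was 2059 and 1940 without control morula replicates 1 and 2, 2212 and 2172 without DDT morula replicates 2 and 3, and 2045, 1552 and 2209 without DDT sperm replicates 1 to 3.

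The bins past the interaction test were mostly bins that also passed in sperm, whose 5 libraries the interaction contains. Of the 3544 bins, 3385 (95.5%) also passed the test in sperm without the pair, against 18.4% of all bins tested there. In morulae 0 passed and 855 (24.1%) had an unadjusted p under 0.05, against 11616 of all 259325 bins. The sperm difference was larger than the morula difference in 3161 bins (89.2%). The median size was 0.51 in sperm, 0.18 in morulae and 0.68 for the interaction, all as log2 differences. The 2 differences had opposite signs in 3167 bins (89.4%). The interaction is formed from these same 2 differences. Choosing bins on it raises the shares of 95.5%, 24.1%, 89.2% and 89.4%, so nothing is read from them. The interaction was at least 2-fold in 178 bins, 93 above and 85 below 0. With all 13 libraries the 3544 bins had the same sign in all cases, with a median of 0.57 in that direction, and 2114 had an unadjusted p under 0.05. These 11 libraries are among those 13, so this is no second observation.

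**Figure D1:**
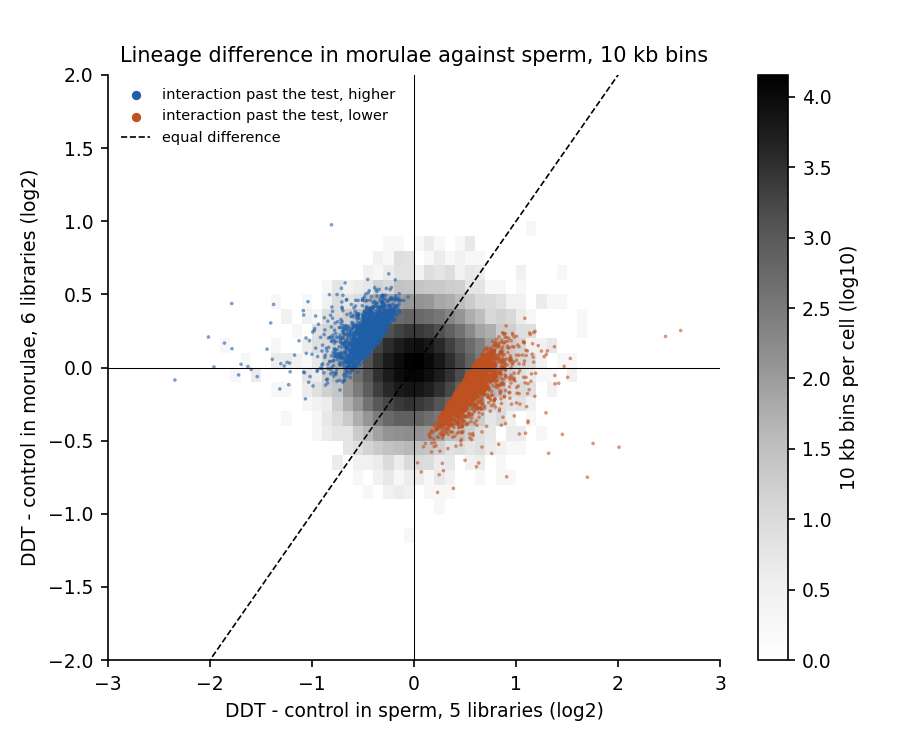
Log2 difference DDT minus control in sperm without the left-out pair (x axis) against that in morulae (y axis), for 10 kb bins; grey shading gives the number of bins per cell on a log10 scale, and coloured points are bins past the interaction test. The 1583 bins above 0 lie at negative sperm differences and the 1961 bins below 0 at positive ones, while the grey cloud lies along the horizontal line and not along the dashed line of equal difference.

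The leading bin above 0 lay on chromosome 14 at 101990001-102000000. Control sperm replicates 1 and 2 had 12.8 and 10.5 CPM, and DDT sperm replicates 1 to 3 had 3.48, 3.36 and 2.70 CPM. Control morulae had 11.5, 11.5 and 10.7 CPM and DDT morulae 11.6, 13.4 and 12.3 CPM. In CPM the embryos of both lineages were thus near the high level of those 2 control sperm libraries, and every DDT morula lay above every control morula. A like CPM in the 2 tissues need not mean like methylation, here and in the bins below. The left-out libraries both had the low level, with 2.63 CPM in control sperm replicate 3 and 3.11 CPM in DDT sperm replicate 4. The interaction without them was 2.05 ± 0.159 (SE) with an edgeR adjusted p of 1.21e-13, and the morula difference was 0.17 ± 0.12 (SE).

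A further pair of bins above 0 lay close together on chromosome 16. At 64970001-64980000 control sperm replicates 1 and 2 had 2.49 and 2.61 CPM and DDT sperm replicates 1 to 3 had 0.51, 0.39 and 0.58 CPM. Control sperm replicate 3 had 0.38 CPM, below every DDT sperm library, and DDT sperm replicate 4 had 0.59 CPM. The morulae had 4.75 to 6.05 CPM in the control and 4.54 to 5.44 CPM in the DDT lineage, which overlapped and stood above all sperm libraries. At 64920001-64930000 the 5 sperm libraries had 5.34 and 6.00 CPM in control against 1.91, 1.93 and 1.41 CPM in DDT, the left-out pair had 3.31 and 3.42 CPM, and all 6 morulae had 9.80 to 12.4 CPM. The other 2 leading bins, on chromosome 7 at 10260001-10270000 and chromosome 9 at 21870001-21880000, had interactions of 1.66 and 1.34, and in both the morulae of the 2 lineages overlapped above the sperm range.

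Among the leading bins below 0, the one on chromosome 2 at 15640001-15650000 had 0.27 and 0.32 CPM in control sperm replicates 1 and 2. DDT sperm replicates 1 to 3 had 1.59, 1.57 and 2.24 CPM. The left-out control sperm replicate 3 had 2.05 CPM, inside the DDT range, and DDT sperm replicate 4 had 2.13 CPM. Morulae had 0.82, 0.89 and 1.28 CPM in the control and 1.02, 1.18 and 1.28 CPM in the DDT lineage, between the 2 sperm levels. The interaction was −2.33 ± 0.308 (SE) with an edgeR adjusted p of 5.3e-06.

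On chromosome 18 at 29170001-29180000 the left-out pair lay on the other side. Control sperm replicates 1 to 3 had 2.26, 2.43 and 1.37 CPM, DDT sperm replicates 1 to 3 had 5.06, 5.92 and 5.66 CPM, and DDT sperm replicate 4 had 1.88 CPM, below 2 of the 3 controls. Control morulae had 5.21 to 5.90 CPM and DDT morulae 5.08 to 6.28 CPM, the level of the 3 high DDT sperm libraries in both lineages. The bin on chromosome 4 at 78070001-78080000 had the same order in sperm, with 2.43 and 2.48 CPM in control sperm replicates 1 and 2, 4.39 to 4.85 CPM in DDT sperm replicates 1 to 3, and 1.26 and 1.88 CPM in the left-out pair. Its morulae did not overlap, with 4.48 to 4.80 CPM in the control and 3.70 to 4.14 CPM in the DDT lineage, opposite to the sperm difference. The bins on chromosome 3 at 175140001-175150000 and chromosome 19 at 26730001-26740000 had interactions of −1.16 and −1.55. In the former, DDT sperm replicates 1 to 3 had 13.1 to 14.6 CPM and DDT sperm replicate 4 had 5.27 CPM, below all 3 control sperm libraries.

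**Figure D2:**
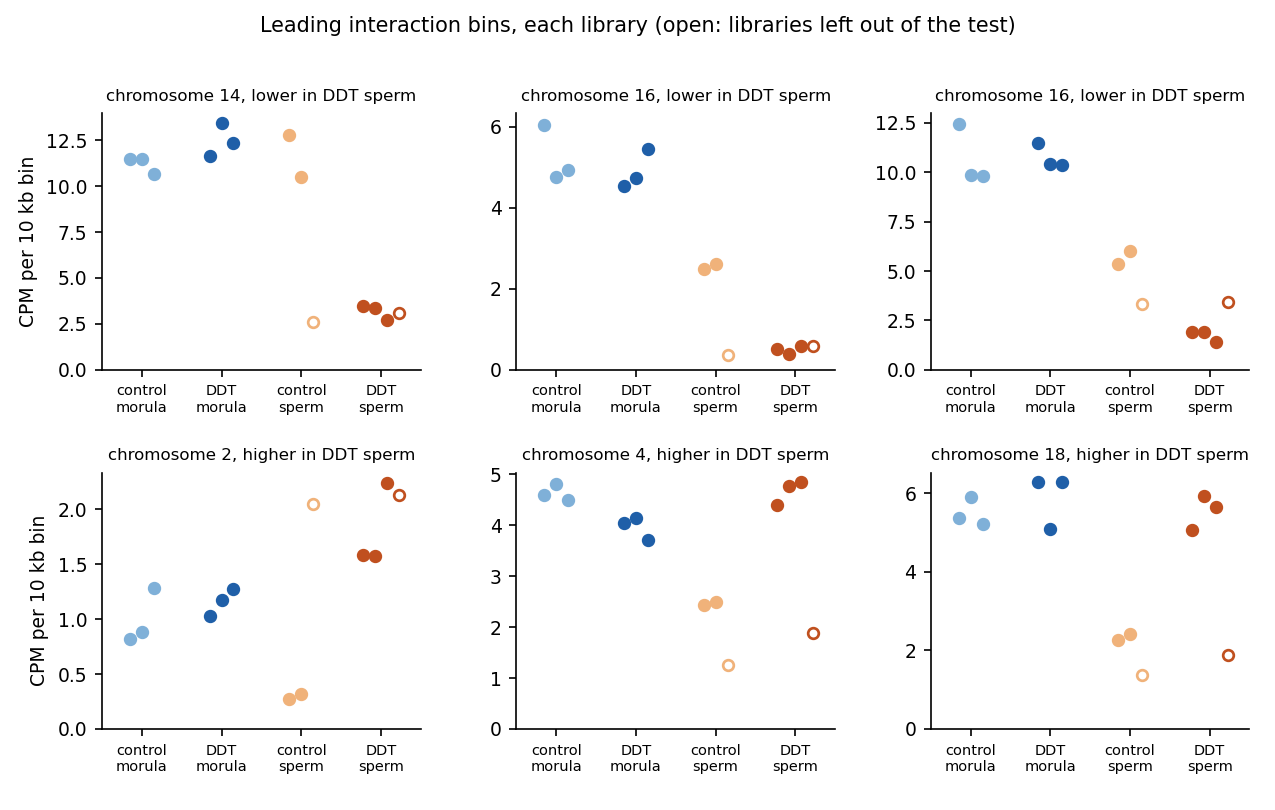
CPM of 6 leading interaction bins in each library, 3 that were lower in DDT sperm (upper row) and 3 that were higher (lower row); open points are the libraries left out of the test. The 2 morula groups overlap in 4 of the 6 panels and not on chromosomes 14 and 4, and the open control sperm point lies nearer to the filled DDT sperm points than to the filled control sperm points in the upper row and on chromosome 2.

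Bins past the interaction test were scattered. The 3544 bins formed 3429 runs of adjacent bins with 1 direction, of which 3330 were single bins and 12 had at least 3 bins. The 4 longest runs spanned 40 kb each. On chromosome 16 at 64920001-64960000 the 4 bins had mean levels of 9.72 and 9.33 CPM in control sperm replicates 1 and 2, 2.92 to 3.94 CPM in DDT sperm replicates 1 to 3, 4.79 and 4.97 CPM in the left-out pair, 13.1 to 16.3 CPM in control morulae and 14.4 to 14.9 CPM in DDT morulae. On chromosome 1 at 39460001-39500000 control sperm replicates 1 and 2 differed from each other, with 10.7 and 5.29 CPM, against 3.35 to 3.86 CPM in DDT sperm replicates 1 to 3, 2.51 and 2.19 CPM in the left-out pair and 6.86 to 7.85 CPM over all 6 morulae. On chromosome 19 at 26640001-26680000 control sperm replicates 1 and 2 had 1.55 and 2.01 CPM, DDT sperm replicates 1 to 3 had 2.73 to 3.60 CPM and the morulae 2.65 to 3.17 CPM. On chromosome 7 at 12080001-12120000 control sperm replicates 1 and 2 had 4.77 and 4.52 CPM, DDT sperm replicates 1 to 3 had 6.86 to 7.07 CPM, the left-out pair 7.75 and 8.05 CPM, control morulae 4.70 to 5.01 CPM and DDT morulae 4.28 to 5.05 CPM. In all 4 runs the morula libraries of the 2 lineages overlapped.

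**Figure D3:**
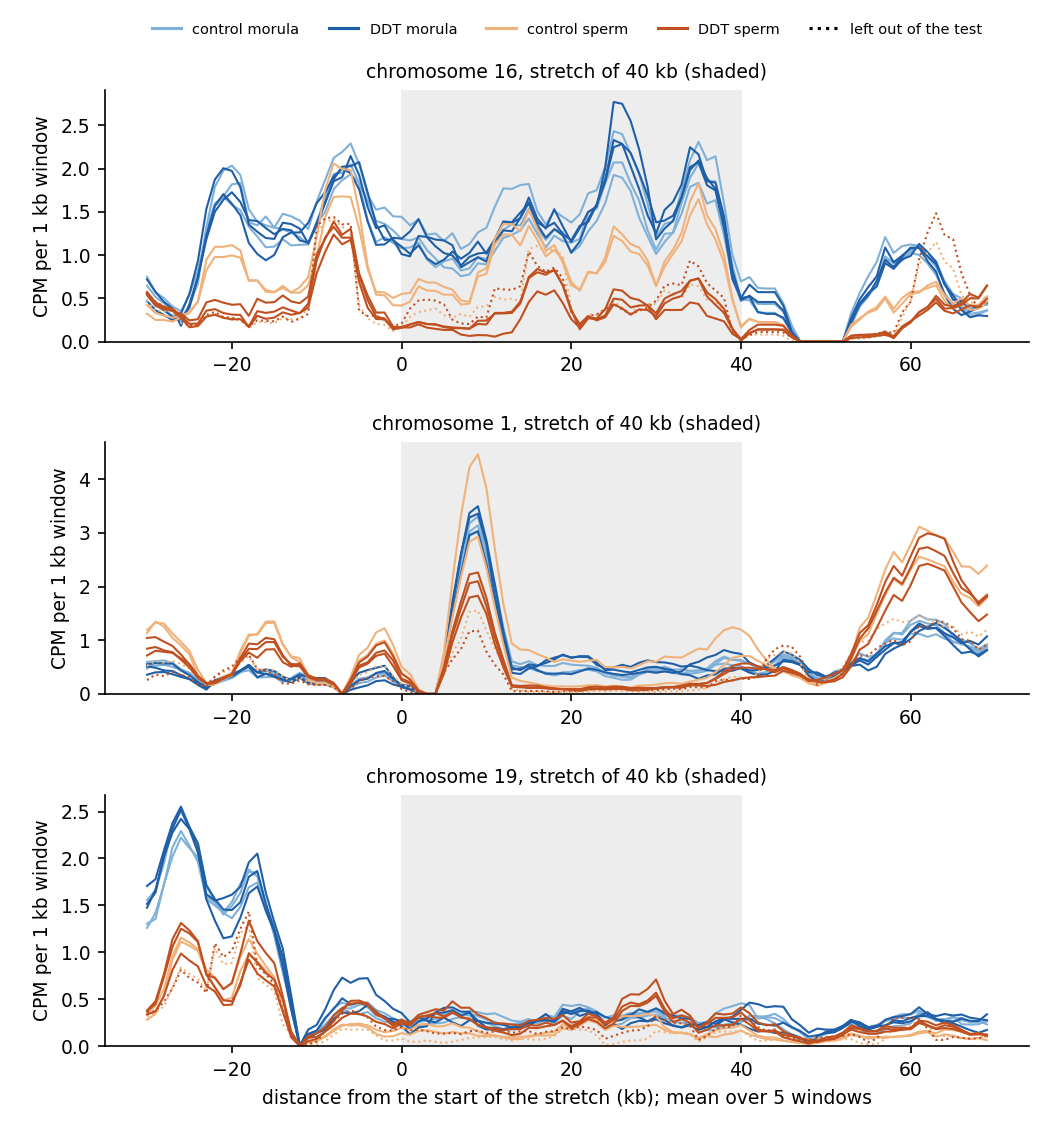
CPM per 1 kb window (running mean over 5 windows) against distance from the start of 3 of the 4 longest runs of interaction bins, those of largest median interaction (shaded, 40 kb each), 1 line per library, dotted for the left-out pair. In the chromosome 16 run the 2 control sperm lines in the test lie above the DDT sperm lines along most of the shaded span, with the morula lines of both lineages above them, and the dotted lines lie near the DDT sperm lines over parts of it.

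Seen from sperm, the lineage difference was much smaller in morulae. Of the bins that passed in sperm without the pair, 47733 were tested in every comparison, and their median sperm difference was 0.36 (log2). In the same bins the median morula difference, counted in the direction of the sperm difference, was 0.018, with quartiles of −0.077 and 0.109. The morula sign was that of sperm in 55.1% of them, against 52.7% of all 259197 bins tested in every comparison. The 95% interval of the morula difference, from the edgeR fit, held 0 and not the sperm value in 31678 bins (66.4%), and it held both in 13722 bins (28.7%), where the precision of 3 against 3 libraries cannot separate them. It held the sperm value and not 0 in 1342 bins (2.81%), and neither in 991 bins (2.08%). Over all 259197 bins the shares, in the same order, were 22.9%, 72.6%, 2.03% and 2.45%. The share of 2.81% was thus near that of all bins. Sperm values were chosen for passing a test, which inflates them, and this inflation was not separated from loss in the embryo. Only the paternal genome of a morula is labelled as lineage material, and the reads do not separate it from the maternal genome. A paternal difference kept in full could thus appear smaller than the sperm value, so these shares do not measure loss.

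The left-out pair gives a measure of how well the sperm difference repeated in sperm. DDT sperm replicate 4 minus control sperm replicate 3 had the sign of the other 5 libraries in 58.8% of these bins, with a median of 0.053 in their direction, against 53.5% and 0.022 over all bins. This pair has 1 library per lineage. In 10 classes of all bins ordered by the sperm difference, the median sperm difference ran from −0.35 to 0.38, that of the left-out pair from −0.046 to 0.061 and that of morulae from −0.013 to 0.019. The slope over bins was 0.041 for morulae on the 5 sperm libraries, 0.128 for the left-out pair on the same 5, and 0.0021 for morulae on the left-out pair. The share of the difference seen again was thus small in morulae and also small in the other sperm libraries.

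**Figure D4:**
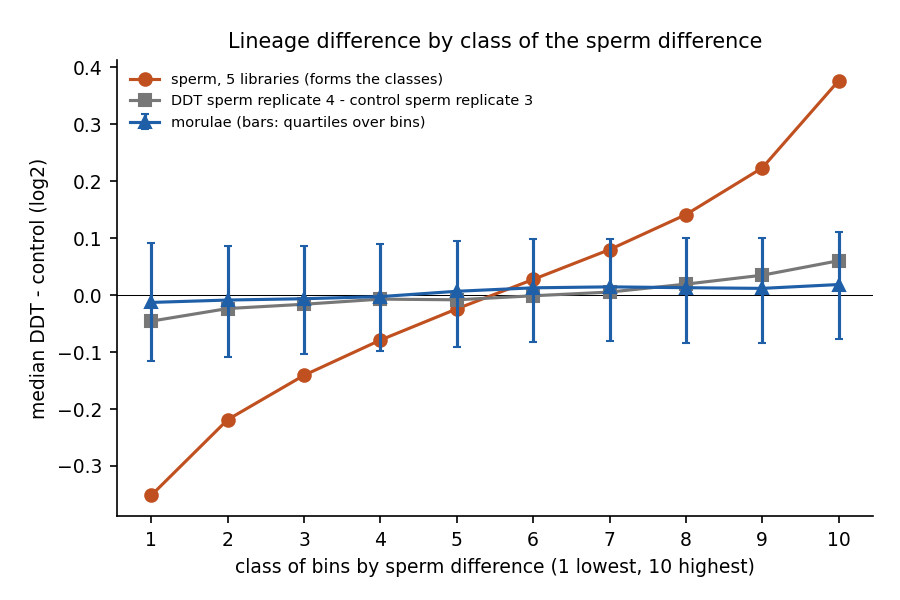
Median log2 difference DDT minus control in 10 classes of 10 kb bins ordered by the difference over 5 sperm libraries (x axis), for those 5 libraries, for the left-out pair and for morulae, with bars for the morula quartiles over bins. The sperm medians run from −0.35 to 0.38, the left-out pair from −0.046 to 0.061 and the morulae from −0.013 to 0.019.

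The largest sperm differences gave the same picture. In 237 bins the sperm difference was at least 2-fold, 165 higher and 72 lower in DDT sperm. These bins had low signal, with a median level of 0.69 CPM against 3.38 CPM over all bins. They were measured less precisely, with a median morula SE of 0.26 against 0.14. Their median size in sperm was 1.17 and their median morula difference in that direction 0.043, and the morula interval held 0 and not the sperm value in 202 of them. In 6 (2.53%) it held the sperm value and not 0, against 2.03% of all bins, and in 10 it held neither. Of the 237, 103 passed the interaction test (43.5%, against 1.37% of all bins), a share that choosing bins on the sperm difference raises.

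The bins of smallest p in sperm were described in each library as well. Over all 7 libraries the leading bins higher in DDT sperm were those on chromosomes 19 and 12 given above and one on chromosome 1 at 100030001-100040000, and those lower in DDT sperm lay on chromosome 9 at 56720001-56730000, chromosome 2 at 47980001-47990000 and chromosome 20 at 54510001-54520000. The last of these had 1.56, 1.70 and 1.3 CPM in control and 0.89, 0.93, 0.92 and 0.77 CPM in DDT sperm, against 2.90, 2.89 and 2.82 CPM in control and 2.69, 2.43 and 3.33 CPM in DDT morulae. Sperm was thus separated by lineage and the control morulae lay inside the DDT range. The chromosome 9 bin had the same sign in both tissues, with −0.75 in 7 sperm libraries and −0.19 ± 0.196 (SE) in morulae, where 1.47 to 2.14 CPM in control overlapped 1.11 to 1.77 CPM in DDT. Without the pair the leading sperm bins were interaction bins already named, apart from one on chromosome 11 at 85870001-85880000, which had 3.66 and 3.28 CPM in control sperm replicates 1 and 2, 6.89 to 7.75 CPM in DDT sperm replicates 1 to 3, 2.15 and 2.80 CPM in the left-out pair and 4.04 to 5.23 CPM over all 6 morulae.

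A score per library shows which libraries carry the sperm difference. It is the mean log2 CPM of the bins that passed higher in DDT sperm minus that of the bins that passed lower, so the lineages of the 5 libraries that chose these bins differ by construction. Control sperm replicates 1 and 2 scored −0.186 and −0.359, and DDT sperm replicates 1 to 3 scored 0.469, 0.468 and 0.517. Control sperm replicate 3 scored 0.667, above those 3 DDT libraries, and DDT sperm replicate 4 scored 0.768. In this score 2 control sperm libraries, the deepest of all 13, lay below the other 5 sperm libraries. Control sperm replicate 3 was nearer in CPM to the mean of DDT sperm replicates 1 to 3 than to that of control sperm replicates 1 and 2 in 72.4% of the sperm bins, against 61.7% of all bins, and DDT sperm replicate 4 in 75.8% against 63.5%. In the strongest sperm bins these shares were below those of all bins. For control sperm replicate 3 they were 57.7% of the 1000 bins of smallest p, 57.4% of the bins at least 2-fold apart and 39% of the 100 bins of smallest p, and for DDT sperm replicate 4 they were 61.5%, 61.6% and 43%.

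In this score the morulae of both lineages lay between these levels, which need not mean that their methylation did. Control morulae scored 0.297, 0.301 and 0.318 and DDT morulae 0.41, 0.308 and 0.30. DDT morula replicate 1 was the highest and the other 2 DDT morulae lay within the range of the controls. The mean difference was 0.034 in morulae, and −0.0010 without DDT morula replicate 1, which had the fewest counts of the morula libraries. The left-out sperm pair differed by 0.101 and the 5 libraries that chose the bins by 0.758.

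**Figure D5:**
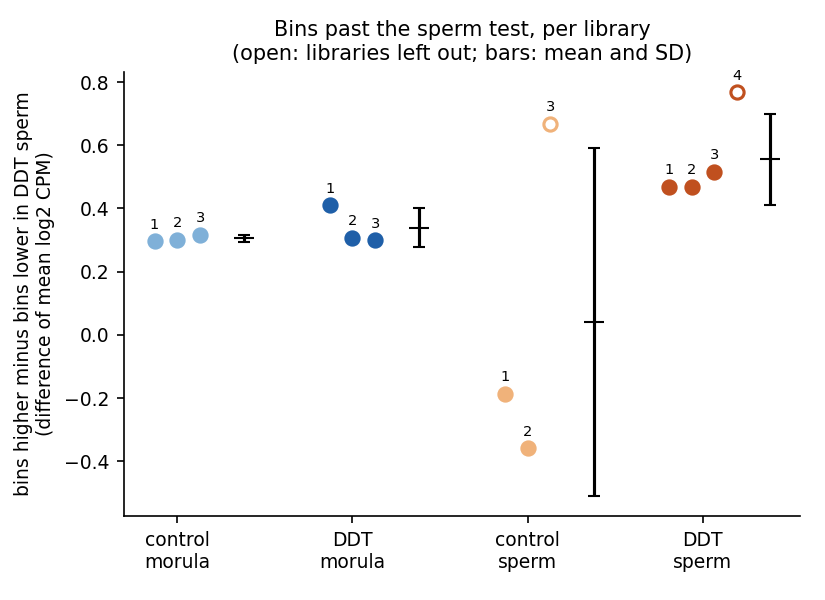
Score of each library (y axis, mean log2 CPM of bins higher in DDT sperm minus that of bins lower in DDT sperm) by group, with replicate numbers above the points, open points for the left-out pair, and bars for the mean and SD of each group. Control sperm replicates 1 and 2 lie below 0 at −0.186 and −0.359, control sperm replicate 3 lies at 0.667, and the morulae of both lineages lie at 0.297 to 0.410.

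The direction in morulae of the 1000 bins of smallest sperm p depended on the same library. Ranked over all 7 sperm libraries, 539 of 1000 bins (53.9%) had the sperm sign in morulae, against 51.0% of all bins. Their median difference was 0.55 in sperm and 0.015 in morulae in that direction. Ranked without the left-out pair the share was 62.5%, against 52.7% of all bins, with medians of 0.70 and 0.043. This list was uneven, with 842 bins higher and 158 lower in DDT sperm, while all bins split about evenly. The morula difference was above 0 in 63.5% of the 842 and in 43.0% of the 158, against 51.4% of all bins. Without DDT morula replicate 1 the shares with the sperm sign were 45.4% and 47.8%. Leaving out any other single library gave 50.3% to 59.5% in the first case and 59.4% to 67.5% in the second.

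From the morula side, the leading bins were not past the test. The smallest p was on chromosome 13 at 56870001-56880000, where control morulae had 4.56, 4.55 and 4.19 CPM and DDT morulae 2.57, 2.94 and 2.86 CPM. In sperm this bin had 3.18, 3.17 and 4.37 CPM in the control and 3.33, 3.13, 3.22 and 4.47 CPM in the DDT lineage. The morula groups did not overlap, and the sperm lineages did, with the left-out pair highest. The morula difference was −0.65 ± 0.133 (SE), with an edgeR adjusted p of 0.515. On chromosome 7 at 11620001-11630000 the 2 tissues went opposite ways, with 4.07, 4.32 and 4.83 CPM in control and 2.77, 2.43 and 3.20 CPM in DDT morulae, against 5.22, 5.44 and 8.91 CPM in control and 7.12, 7.74, 7.57 and 10.2 CPM in DDT sperm. Its interaction passed without the pair, at −1.11 ± 0.161 (SE) with an edgeR adjusted p of 4.6e-05.

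One of the 6 leading morula bins had a difference of like size in both tissues when the left-out pair was removed. On chromosome 2 at 78890001-78900000 control morulae had 3.96, 2.52 and 3.48 CPM and DDT morulae 4.62, 5.11 and 5.03 CPM. Control sperm had 3.45, 3.12 and 3.24 CPM, DDT sperm replicates 1 to 3 had 4.58, 4.85 and 5.05 CPM, and DDT sperm replicate 4 had 2.80 CPM. The difference was 0.58 ± 0.129 (SE) in morulae, with an edgeR adjusted p of 0.67, and 0.57 ± 0.0871 (SE) in sperm without the pair, with an adjusted p of 5.00e-05. The interaction without the pair was 0.036 ± 0.164 (SE). With all 7 sperm libraries the sperm difference was 0.42 ± 0.181 (SE) and did not pass the test. The remaining leading bins, on chromosome 2 at 155860001-155870000 and 104280001-104290000 and on chromosome 16 at 65130001-65140000, had morula differences of 0.65, −0.83 and 0.55.

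Removing the trend of counts with signal level let 5 bins pass in morulae, all higher in the DDT lineage, and they are named here after their values were seen. They lay on chromosome 1 at 180640001-180650000, chromosome 5 at 6370001-6380000, chromosome 7 at 22320001-22330000, chromosome 8 at 180001-190000 and chromosome 20 at 19480001-19490000. Their log2 differences under that offset were 0.33 to 0.40 with edgeR adjusted p of 0.00301 to 0.0248. The chromosome 1 bin had 57.6, 62.9 and 76.1 CPM in control morulae, 96.8, 89.2 and 90.1 CPM in DDT morulae, and 19.2 to 34.0 CPM in 5 sperm libraries, against 109.8 and 98.4 CPM in control sperm replicate 3 and DDT sperm replicate 4. Sums over 100 kb gave 5 passing bins in morulae, also named after their values were seen. These were 3 adjacent ones on chromosome 1 at 180600001-180900000, 1 on chromosome 13 at 33500001-33600000 and 1 on chromosome 20 at 40900001-41000000. In each of these 5 the left-out sperm pair was the highest of the sperm libraries.

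Interaction calls without the pair were more frequent at high signal. In 10 classes of mean CPM, 0.837% of the lowest class (median 1.57 CPM) and 2.14% of the highest (median 7.61 CPM) passed. The standard error fell from a median of 0.242 to 0.157 between these classes. The direction changed along them. The lowest class had 146 bins above and 71 below 0, and the highest had 55 above and 499 below. With the trend of counts with level removed, the lowest class had 87 above and 103 below and the ninth class turned to 393 above and 285 below, while the highest stayed at 230 above and 686 below.

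Without the pair, bins past the interaction test lay on every autosome, in 1.12% (chromosome 18) to 2.47% (chromosome 12) of the bins. With all 13 libraries no bin passed on any of them. On chromosome 12, 20 bins lay above and 108 below 0, and 25.3% of its bins passed in sperm without the pair, compared with 18.4% over all autosomes. The lean below 0 was also found with library-size scaling (19 and 159), DESeq2 size factors (21 and 94) and the level trend removed (38 and 109). It was not particular to chromosome 12. Chromosomes 10 (40 above and 118 below) and 19 (26 and 76) had it too, also with the level trend removed (55 and 113, 39 and 85). With TMM scaling more bins lay above than below 0 on chromosomes 2, 9, 14, 15, 17 and 18, as with DESeq2 size factors. Library-size scaling turned this round on each of them (146 and 218, 60 and 127, 80 and 100, 61 and 87, 49 and 79, 39 and 69). With the level trend removed chromosome 9 had 90 above and 93 below. Chromosome medians of the interaction without the pair ran from −0.043 (chromosome 12) to 0.047 (chromosome 14). With all 13 libraries they ran from −0.062 (chromosome 12) to 0.026 (chromosome 2).

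In 1 kb windows, the unit of the deposited tables, 0 of 2434451 windows passed with 13 libraries (0%), with 105816 at an unadjusted p under 0.05. Without the pair 4532 of 2451374 passed (0.185%), 1169 above and 3363 below 0. The window on chromosome 16 at 64930001-64931000, inside the longest 10 kb run, was among the 5 leading windows above 0 in both fits. It had 71, 88 and 0 counts in control sperm, 2, 4, 0 and 1 counts in DDT sperm, 75, 41 and 40 counts in control morulae and 36, 41 and 38 counts in DDT morulae. All 6 morula libraries therefore had reads where 5 sperm libraries had 4 or fewer, and without the pair the interaction was 4.80 ± 0.537 (SE) with an edgeR adjusted p of 5.60e-08. A count of 0 allows up to 3 counts in a library.

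Other leading windows differed in form. On chromosome 14 at 101988001-101989000 control sperm had 401, 393 and 9 counts and DDT sperm 45, 37, 36 and 9, with 73 to 132 counts in control and 53 to 80 in DDT morulae. On chromosome 3 at 60964001-60965000, the leading window below 0 with 13 libraries, control sperm had 1, 0 and 0 counts and DDT sperm 46, 40, 36 and 0, while control morulae had 4, 6 and 7 counts and DDT morulae 0, 0 and 2. The morula counts leaned the other way there, at depths where each value rests on single reads. The groups were apart in morulae and overlapped in sperm on chromosome 5 at 91887001-91888000, where control morulae had 17, 17 and 12 counts and DDT morulae 0, 2 and 0, against 25, 19 and 1 in control and 24, 16, 34 and 5 in DDT sperm. Neither of these last windows passed with 13 libraries (edgeR adjusted p of 1.00).

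The authors' deposited tables hold their own edgeR p-values per window for each tissue, in which DDT-higher windows have negative log2 fold changes because control is the numerator. At a p under 1e-05 the authors' deposited table lists 73 sperm windows, 35 of them higher in DDT, and 74 morula windows, 32 of them higher in DDT. No window is in both lists. The authors' deposited tables give a morula value for 55 of the 73 sperm windows, of which 30 have the same direction in morulae (54.5%, against 50.8% of all windows with both values). In the authors' deposited tables this share was 903 of 1672 windows (54.0%) at a p under 0.001, 148 of 248 (59.7%) at a p under 1e-04 and 11 of 13 (84.6%) at a p under 1e-06. At a p under 0.001 the lists of the authors' deposited tables hold 2034 and 2788 windows and share 1.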

How the data were processed

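MeDIP-seq read counts per 1 kb window were deposited by the authors for 13 libraries. Per the submitters' processing notes the reads passed through FastQC, Trimmomatic, Bowtie2 and SAMtools on the build Rnor_6.0. The handling of duplicate reads is not given in the sources used here. The authors also deposited edgeR log2 fold changes and p-values, used only where named. The 2 tables of DDT against control were joined by chromosome and start.

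Counts were summed over 10 kb and tested with edgeR 4.0.16 (quasi-likelihood, trended dispersion, TMM, two-sided) in R 4.3.3, with Benjamini-Hochberg adjustment over all bins tested and a minimum of 5 counts per library on average. Sperm and morulae were also fitted alone. Alternatives used limma 3.58.1 and DESeq2 1.42.0. The scripts were tested on simulated data. Scores and library differences used log2(CPM + 0.05), with CPM over autosomal counts.

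Named bins were, above and below 0, the 5 of smallest interaction p with 13 and with 11 libraries and the 3 of smallest p in sperm and in morulae, where bins within 20 kb count as 1 place, and likewise 5 windows of 1 kb. The bins, lists and alternatives were chosen with earlier results of these data known. Replicate numbers were not taken as pairs in the main fits. The deviations of same-numbered libraries from their group means correlated from −0.62 to 0.60, and those of differently numbered libraries from −0.72 to 0.79. These ranges cannot decide whether the numbers pair the libraries. Genes, CpG density and sequence were not analysed here because no genome of this build was used. Counts of reads without molecular identifiers are not counts of molecules, and limits from a count of 0 cover counting error only. Precision followed depth, and 3 counts equal 0.0159 CPM in the deepest and 0.102 CPM in the shallowest library.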

Additional observations from a re-analysis of the deposited data

Results flagged for a closer look

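In the group of 4 DDT sperm libraries a single library lay far from the other 3 in 5 named bins and in the score. Chance marks about 1 in 20 groups in this way where bins are not chosen on these libraries. The bins on chromosomes 3, 4 and 9 and those of the score were chosen in fits without DDT sperm replicate 4. Such a choice favours agreement among the libraries in the fit, so that rate does not apply to them. DDT sperm replicate 4 was the outlying one in 4 of the bins, at 1.88 CPM on chromosome 4 (78070001-78080000), 5.27 CPM on chromosome 3 (175140001-175150000), 3.45 CPM on chromosome 1 (100030001-100040000) and 4.47 CPM on chromosome 13 (56870001-56880000), and in the score, at 0.768. DDT sperm replicate 3 was the outlying one on chromosome 9 (21870001-21880000), at 1.80 CPM. The chromosome 1 bin was among the 3 of smallest p that were higher in DDT sperm over all 7 libraries.

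The DDT difference itself differed between morulae and sperm, by the interaction test without the left-out pair, in 10 named bins. These were named for their smallest p in this same test, so their passing it is no further result. The values above 0 were 2.05 on chromosome 14 (101990001-102000000), 2.28 and 1.74 on chromosome 16 (64970001-64980000 and 64920001-64930000), 1.66 on chromosome 7 (10260001-10270000) and 1.34 on chromosome 9 (21870001-21880000). The values below 0 were −2.33 on chromosome 2 (15640001-15650000), −1.12 on chromosome 4 (78070001-78080000), −1.11 on chromosome 18 (29170001-29180000), −1.16 on chromosome 3 (175140001-175150000) and −1.55 on chromosome 19 (26730001-26740000). With all 13 libraries none of the 10 passed, at adjusted p of 1.00.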

How the results depend on the processing

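Leaving out control sperm replicate 3 and DDT sperm replicate 4 changed the count of 10 kb bins past the interaction test from 0 to 3544, that of 1 kb windows from 0 to 4532, that of sperm bins from 0 to 47739 and the share of leading sperm bins with the sperm sign in morulae from 53.9% to 62.5%. With 13 libraries the interaction count was 0 under each other setting, and 0 to 9 when 1 library was left out. The sperm count with 7 libraries was 0 except for 103 with DESeq2, and 0 to 6 with 1 library left out. In morulae it was 0 except for 5 with the level trend removed and 5 in 100 kb sums. Without the pair, settings added after seeing the data gave 2259 interaction bins with DESeq2, 2880 to 4198 under the other settings in 10 kb bins, and 195 to 6250 with 1 further library left out, and DESeq2 gave 26684 sperm bins, with 12031 to 44158 when 1 library was left out. The interaction calls of the DESeq2 test included 61.9% of the 3544 bins, and those without control sperm replicate 2 included 5.1%. The direction share was 61% for 100 bins and 45.4% to 59.5% with 1 library left out. Without the pair it was 62.5%, with 59% under library-size scaling, 57.7% with the level trend removed, 65% in 1 kb windows and 47.8% to 67.5% with 1 library left out. The cause of these changes was not tested. The replicate block gave 0 interaction bins with 13 libraries and 3416 without the pair (3544 without the block). It gave 41820 sperm bins without the pair and 0 morula bins. Same-numbered libraries correlated over 0.1 in 2 of 18 cases and differently numbered ones in 7 of 45. The 10 leading bins without the pair had an adjusted p of at most 0.00438 in all 190 values of the alternatives. They were chosen on these same libraries, so those values are no second observation.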
